A study of Mus musculus with 4 samples.

Results

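Short peaks of a single unspliced block in the 3′ UTR were the most numerous kind of m6A peak in the KO list as deposited. They did not keep that rank under a stricter error limit or a shorter length limit, as given below. They were the rows of the authors' 2 peak lists annotated to a 3′ UTR, with 1 block of at most 300 bases. The KO list held 5705 of them among 21031 peaks, a share of 27.1% (26.5 to 27.7), and the WT list 3552 among 16709, a share of 21.3% (20.6 to 21.9). Ranges after a share are exact (Clopper-Pearson) 95% binomial intervals throughout, and they cover counting error only. The choice used annotation, block number and length, and no value of enrichment.

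N6-methyladenosine (m6A) was profiled by m6A-seq, in which an antibody against m6A pulls down fragmented poly(A) RNA (the IP) and the fragments are sequenced beside the RNA before pull-down (the input). The KO cells were LysM-cre, Mettl3fl/fl bone-marrow-derived macrophages of C57BL/6 mice, and the WT cells were Mettl3fl/fl macrophages of the same strain with no Cre named, so both genotypes carry the floxed alleles. LysM-cre acts in myeloid cells, so removal of Mettl3 depends on Cre activity in the culture. There was 1 IP and 1 input library per genotype and no replicate, so every difference below has no replicate check. Both were cultured with M-CSF, the growth factor that turns marrow cells into macrophages.

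METTL3 is the catalytic subunit of the complex that writes most m6A in messenger RNA. The mark is known to concentrate near stop codons and along 3′ UTRs, usually where the sequence reads GGAC or a close relative, and reader proteins that bind it influence RNA decay, splicing and translation. A transcript's 3′ end is set by cleavage and polyadenylation, which usually follows the hexamer AATAAA by a short distance.

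RefSeq promoter windows of build GRCm38.p6 reach into a few of these 3′ UTR regions, where a transcription start lies close by. At least 60 bases could be read for 19 KO peaks, 12 WT peaks and 4 rows of the differential table, on the strand of the gene that holds the peak. The stretches below show 3 rows of the differential table at the ends of their genes, with AATAAA in capitals, and for Mcoln1 also the GGAC in the same row.
Mcoln1, chr8:3515163-3515192, plus strand: ggctgatcgaatcGGACacaggggaaaggg
Mcoln1, chr8:3515203-3515232, plus strand: gggcggctgttaAATAAAagggaatgtaaa
Pfdn5, chr15:102331459-102331488, plus strand: tttaatgttAATAAAtgtgaccgctgcgca
Kmt2d, chr15:98831678-98831707, minus strand: ttttaaacgataAATAAAaaaagaacattt
Mcoln1 encodes a lysosomal cation channel, Pfdn5 a subunit of the prefoldin chaperone and Kmt2d a histone H3 lysine 4 methyltransferase. The last base of the hexamer lay 12 bases before the RefSeq end of Mcoln1, 17 before that of Pfdn5 and 21 before that of Kmt2d. All 3 rows were higher in KO by the authors' deposited table, where 30.4% of all rows and 83.1% of short 3′ UTR rows were, with log2 ratios of 0.68 for Mcoln1, 0.62 for Pfdn5 and 1.10 for Kmt2d. The fourth row, in the transcription factor gene Camta2, held neither AATAAA nor GGAC in the 204 bases read and was higher in KO too, at 0.41 in the authors' deposited table.

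Further stretches come from the peak lists themselves, chosen to show the hexamer and the m6A-type letters in peaks of either list. Capitals again mark the motif, the hexamer or the GGAC with its following T where there is one.
Mapkbp1, KO peak, chr2:120027320-120027349, plus strand: ctgtacggggtgGGACTgttttaacgtttc
Mapkbp1, KO peak, chr2:120027363-120027392, plus strand: tatgaaattgtcAATAAAcacaatcatttg
Card9, KO peak, chr2:26352191-26352220, minus strand: aaaatgcaactaAATAAAataatcaccgag
Nabp2, KO and WT peaks, chr10:128401395-128401424, minus strand: tccctccttcctAATAAAtgttcccactca
Sympk, WT peak, chr7:19054572-19054601, plus strand: tgccttaacacaAATAAAagagggcgtagc
Trex1, KO and WT peaks, chr9:109059251-109059280, minus strand: caggcctatgggtGGACccaggcagtttta
Mapkbp1 encodes a JNK-binding scaffold protein, Card9 an adaptor downstream of fungal receptors, Nabp2 a single-stranded DNA binding protein, Sympk a scaffold of the polyadenylation machinery and Trex1 a cytosolic DNA exonuclease. Over all stretches read, AATAAA was present in 10 of 19 from KO peaks, 8 of them 13 to 31 bases before the RefSeq gene end, and in 5 of 12 from WT peaks, 4 of them 12 to 34 bases before it. The KO counts include 2 overlapping peaks of U2af1l4 that hold the same hexamer. GGAC was present in 5 of 19 KO and 4 of 12 WT stretches, counting GGACT, which contains it. In the central 104 bases of all 32851 promoter windows AATAAA stood in 4.05% on the gene's strand and 3.55% on the other, and GGAC in 31.1% and 32.4%. The Trex1 stretch lay in the promoter window of Trex1 itself, with its GGAC 1332 bases before the RefSeq end. Some other stretches, such as that of Cad, also lay in the window of their own gene. Their 3′ UTR label was not checked against single transcripts. All stretches were readable only because a start site lies beside them, so they stand for no other peak.

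The peaks were short on a fixed grid and weakly enriched. Their median length was 210 bases in KO and 180 in WT, and 97.7% of KO and 98.2% of WT lengths were at most 2 bases below or 1 above a multiple of 30. The authors' enrichment, a fold of IP over input, had a median of 2.15 (quartiles 1.68 to 3.07) in KO and 1.99 (1.54 to 2.86) in WT. Longer single-block 3′ UTR peaks had medians of 4.25 in KO and 5.01 in WT, and spliced 3′ UTR peaks, whose blocks join across an intron, 4.72 in KO and 7.14 in WT. A fold under 2 was found in 42.9% of the short peaks in KO and 50.3% in WT. At a false discovery rate (FDR) under 0.05, as the authors computed it, 3195 KO short peaks remained. That was 56.0%, against 64.9% of all KO peaks. In WT 1863 remained, or 52.4%, against 70.2% of all WT peaks. Long single-block 3′ UTR peaks were the most numerous class in KO at that FDR, at 3237. Around the length limit nothing changed abruptly: peaks of 300 bases had a median fold of 2.6 in KO (244 peaks) and 2.64 in WT (135), and those of 301 bases 2.58 in KO (184) and 2.42 in WT (83).

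This class made up much of the difference in peak number between the lists. The KO list exceeded the WT list by 4322 peaks, and the difference in short 3′ UTR peaks alone was 2153, or 49.8% of it, a ratio of KO to WT counts of 1.61. The ratio was 1.41 for long single-block 3′ UTR peaks, 1.05 for spliced ones, 0.997 for 5′ UTR peaks and 1.18 for other exons. Total reads per library are unknown here, so these counts are not scaled to depth. With a limit of 200 bases in place of 300 the share of short peaks was about equal, at 12.3% in KO and 12.5% in WT. In KO this was below the 25.6% of peaks in other exons. At a fold of 4 or more the share of short peaks was 10.2% in KO and 6.28% in WT.

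**Figure D1:**
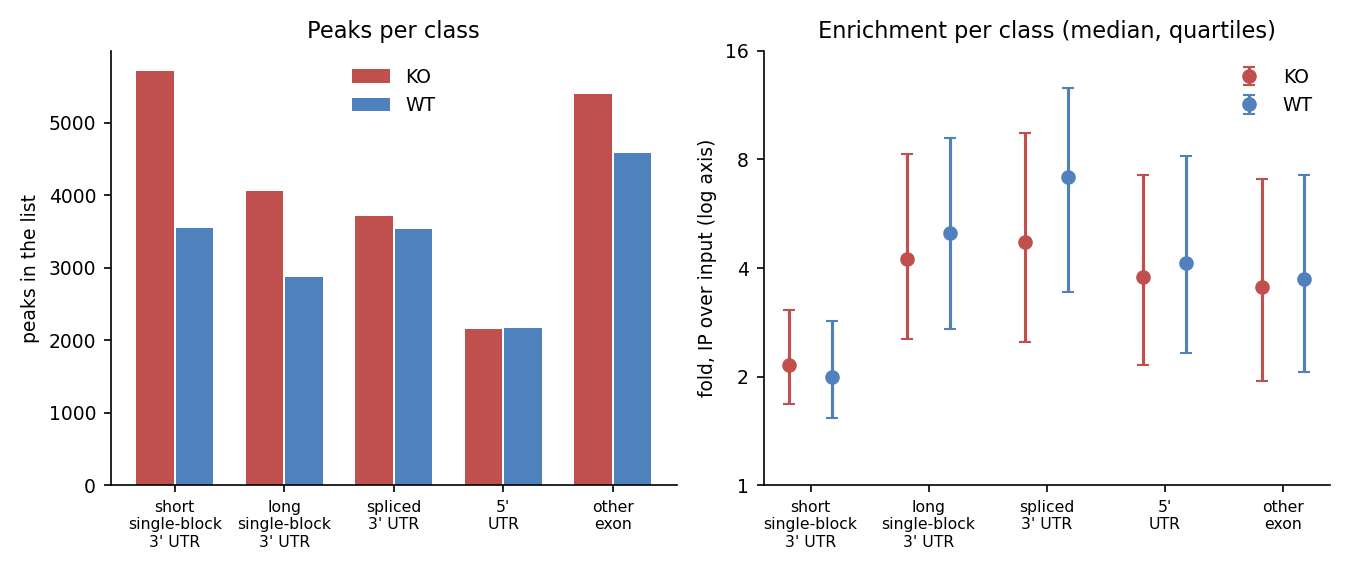
The left panel gives the number of peaks per annotation class in the KO and WT lists, and the right panel the authors' fold of IP over input on a log axis, as the median with its quartiles. Short single-block 3′ UTR peaks number 5705 in KO and 3552 in WT and have the lowest median fold in both lists, 2.15 in KO and 1.99 in WT.

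The KO peaks fell in 4626 RefSeq genes and the WT peaks in 3039. Most genes had a single short peak, while 804 genes in KO and 396 in WT had 2 or more. Of the short peaks, 313 in KO and 202 in WT overlapped another short peak of the same list, so some regions are counted more than once. The predicted gene Gm37013 had the most in KO, at 22. The glucuronosyltransferase gene Ugt1a1 had 8 in KO and 9 in WT, a locus of overlapping transcripts. Daglb, a lipase that makes the endocannabinoid 2-arachidonoylglycerol, had 6 in KO, and Lat2, an adaptor of immune receptors, had 5. Each peak carries the name of the gene whose start is closest, and that gene held the peak in 65.1% of KO and 67.9% of WT cases. Genes are therefore named here by the assigned gene where its RefSeq extent holds the peak, and otherwise by the RefSeq gene that does, or, of several, the protein-coding one with the nearest 3′ end.

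Of the highest folds per list, taken by the rule for named genes below, all in KO lay within 100 bases of the gene end. In WT most did, but Arhgap8 (29.6-fold) lay 650 bases inside, Zfp446 (18.4-fold) 2962, Zup1 (14.3-fold) 6146 and Mettl6 (14.3-fold) 9862. At FDR under 0.05, 64.2% of short peaks in KO and 56.0% in WT lay at the end. The WT choice was thus close to that share. The examples that follow all lay at the end. Hmox1, the heme oxygenase that breaks down heme, had a fold of 32.4 in KO and 96.9 in WT, in peaks of 179 bases in KO and 120 bases in WT that end 4 bases before the RefSeq end. Clec2d, a C-type lectin that is a ligand of natural killer receptors, reached 26.6 in KO and 12.4 in WT, 1 base from the gene end. Il20rb, a subunit of the interleukin 20 receptor, had no KO peak and 19.4 in WT, and Otulinl, a pseudo-enzyme relative of the deubiquitinase OTULIN, had 20.1 in KO with no WT peak. Usp12, a deubiquitinase, had 1.69 in KO and 53.1 in WT. The number of reads behind each fold is unknown.

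Some peaks with very low p lay in abundant macrophage transcripts at modest folds, and the examples here were chosen after their values were seen. Others did not, such as the peak of Rgs1, a regulator of G-protein signalling, with a fold of 4.05 in KO and 5.61 in WT at inputs of 7.26 FPKM in KO and 6.73 FPKM in WT. The lysosomal protease Ctsd, whose peak the authors assigned to Ifitm10, had a fold of 2.26 in KO and 1.61 in WT. The bacteriolytic enzyme Lyz2, the locus whose promoter drives LysM-cre, had 1.75 in KO and 1.34 in WT, with inputs of 6615 FPKM in KO and 10533 FPKM in WT (FPKM counts fragments per transcript length and per library total). The KO peak runs 211 bases past the RefSeq end of Lyz2. The WT peak did not overlap the RefSeq extent of Lyz2, so its name there is the authors' assignment. The pore-forming protein Mpeg1 had 2.99 in KO and 2.44 in WT. Mfge8, a bridge for engulfing apoptotic cells, had 2.70 in KO and 1.78 in WT, and its peak was assigned to Hapln3.

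Within their genes many short peaks lay at the annotated 3′ end. Of the peaks inside exactly 1 RefSeq gene with known strand, 2431 of 4573 in KO (53.2%, 51.7 to 54.6) and 1406 of 2868 in WT (49.0%, 47.2 to 50.9) ended within 100 bases of the gene's 3′ end. Long single-block peaks did so in 36.8% in KO and 30.0% in WT, and spliced ones in 24.6% in KO and 19.5% in WT. The median distance of short peaks from the end was 59 bases in KO and 117.5 bases in WT. At the same time 28.6% of the short peaks in KO and 31.3% in WT lay more than 1000 bases inside. The class thus holds peaks at that end and others far from it. All distances here run to the outermost RefSeq end of the gene, so a peak at the end of a shorter transcript counts as inside. With a limit of 200 bases the order of the genotypes at the end turned, at 46.2% in KO and 52.3% in WT.

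A smaller share of short peaks than of other 3′ UTR peaks had a counterpart in the other genotype. In KO 40.3% of them (39.0 to 41.6) shared at least 1 base with a WT peak, against 61.6% of all KO peaks, and in WT 67.0% (65.4 to 68.5) shared one with a KO peak, against 73.4% of all WT peaks. The shares for long single-block peaks were 75.1% in KO and 86.3% in WT, and for spliced ones 77.5% in KO and 89.3% in WT. Folds differed between the classes, which were therefore also compared within 10 classes of fold. In the KO list's 5th class, folds 2.54 to 3.15, 42.4% of short and 79.7% of long peaks were shared, and in its strongest, above 10.6-fold, 43.9% of short and 87.0% of long. In WT the gap depended on the fold. In the WT list's lowest class, up to 1.53-fold, the shares were close, at 74.8% of short, 76.4% of long and 76.1% of spliced peaks, and in the next, up to 1.88-fold, 72.2% of short, 84.8% of long and 68.5% of spliced peaks were shared. In its 5th class, folds 2.86 to 3.74, 59.0% of WT short and 89.6% of WT long peaks were. The classes differ in length by definition, and the part of length in sharing was not tested.

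Many shared peaks were one shape in one genotype and another in the other. Of the KO short peaks, 1531 met a WT short peak, 528 a long single-block WT peak and 313 a spliced WT peak. Of the WT ones, 1539 met a KO short peak, 653 a long KO peak and 293 a spliced KO peak. Only 131 had the same start and end in both lists. Among these, the small GTPase gene Rac3 had a fold of 9.05 in KO and 11.2 in WT, and the apoptosis inhibitor gene Birc2 11.8 in KO and 6.12 in WT. In WT, peaks with a KO partner lay at the gene end in 61.7% (59.5 to 63.9) and those without one in 23.8% (21.2 to 26.7). In KO the same shares were 52.1% (49.8 to 54.4) with a WT partner and 53.9% (52.0 to 55.8) without.

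Enrichment at the short 3′ UTR regions was mostly higher in KO, the reverse of the other regions. In the authors' deposited table of KO over WT ratios, 1501 rows have this shape, and 1248 of them (83.1%, 81.2 to 85.0) were higher in KO and 253 lower. Over all 6050 rows of the authors' deposited table, 30.4% were higher in KO and 69.6% lower. The share was 15.0% for long single-block 3′ UTR rows, 10.8% for spliced ones, 11.3% for 5′ UTRs and 14.8% for other exons, and 13.0% over all rows but the short ones, in the authors' deposited table. Ratios were modest, with a median log2 ratio of 0.57 (quartiles 0.34 to 0.84) over short rows and -0.40 over all rows of the authors' deposited table. At an FDR of the difference under 0.05 in the authors' deposited table stood 1099 short rows (73.2%), against 79.6% of all rows. The p-values in it compare the reads of these libraries, not genotypes, and regions outside it are not listed. Relative to that median of all rows, 85.3% of the short rows and 38.1% of the others in the authors' deposited table lay above it, so centring leaves the contrast between classes in place.

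The direction turned with length. Among single-block 3′ UTR rows of the authors' deposited table, 87.2% of those up to 120 bases were higher in KO, 88.7% at 121 to 180 bases, 84.3% at 181 to 240 and 66.5% at 241 to 300. Beyond the limit the share went on falling, to 48.8% at 301 to 360 bases, 20.9% at 481 to 600 and 1.7% above 900 in the authors' deposited table. At the limit itself there was no step, with 59.1% (49.6 to 68.2) at 271 to 300 bases and 56.8% (45.8 to 67.3) at 301 to 330 bases in the authors' deposited table. Short single-block rows elsewhere were mostly lower: by the authors' deposited table, 28.6% of 105 such rows in 5′ UTRs (20.2 to 38.2) and 29.8% of 275 in other exons (24.5 to 35.6) were higher in KO, against 6.5% and 9.1% of the longer ones.

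**Figure D2:**
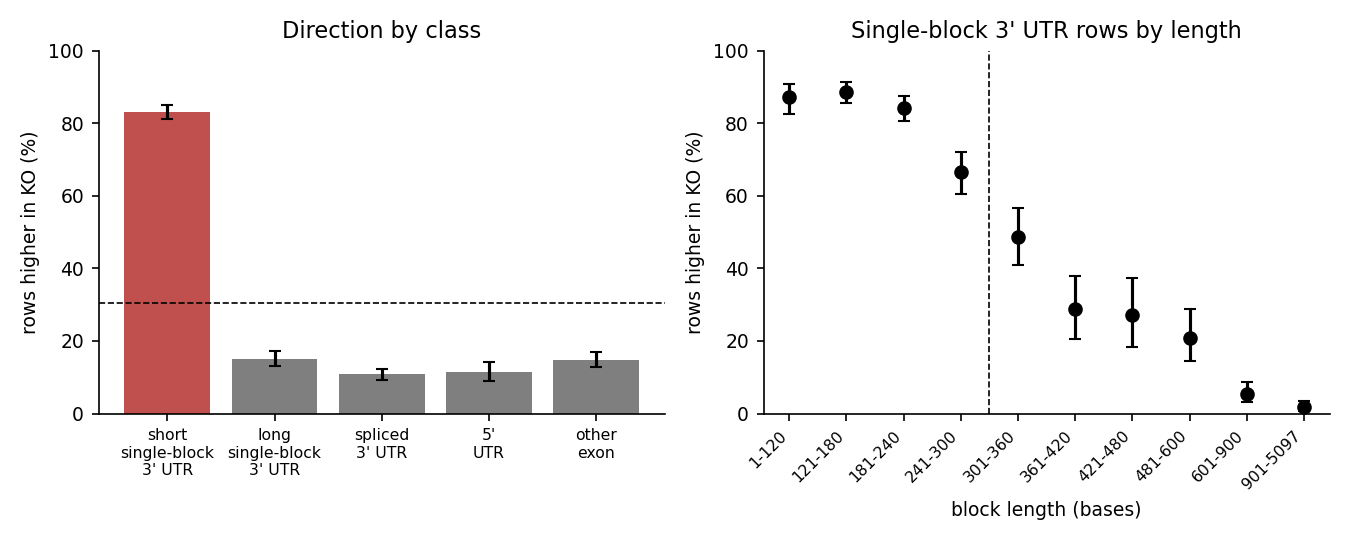
Percentage of rows of the authors' deposited table with a ratio of KO over WT above 0, by annotation class (left, dashed line at 30.4% for all rows) and by block length of single-block 3′ UTR rows (right, dashed line at the 300-base limit). Error bars are exact 95% binomial intervals. Short 3′ UTR rows stand at 83.1%, other classes at 10.8% to 15.0%, and beyond 180 bases the share falls with length, to 1.7% above 900.

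The place in the gene separated the rows further. Within 100 bases of the gene's 3′ end, 770 of 793 short rows (97.1%, 95.7 to 98.2) were higher in KO by the authors' deposited table, with a median log2 ratio of 0.61. At 101 to 400 bases inside the share was 79.5% of 88 rows, at 401 to 800 bases 77.5% of 71, at 801 to 1600 bases 50.0% of 102 and beyond 1600 bases 38.5% of 169, in the authors' deposited table. Long single-block rows gave 26.2% at the end and 8.4% beyond 1600 bases in the authors' deposited table, and spliced rows 24.7% and 4.3%. Median block lengths of the short rows were 180 bases at the end and 210 beyond 1600 bases. The part of length in the change with distance was not tested.

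**Figure D3:**
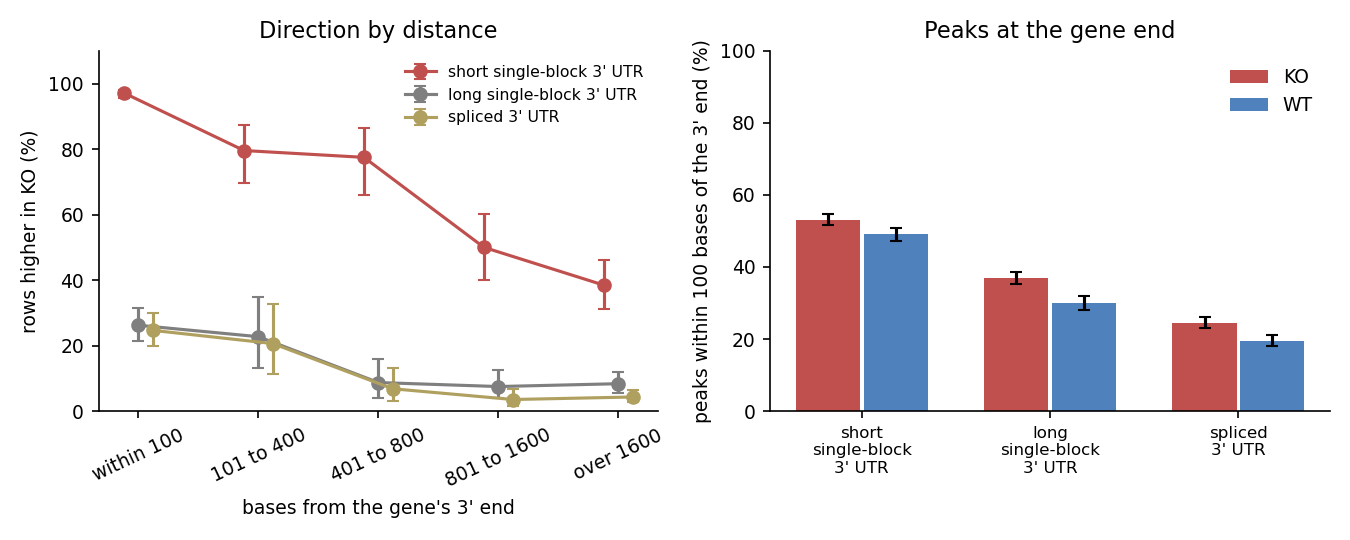
Left, percentage of rows higher in KO by the authors' deposited table by distance of the row from the RefSeq 3′ end of its gene, for the 3 classes of 3′ UTR rows. Right, percentage of peaks within 100 bases of that end in the KO and WT lists. Bars on points are exact 95% binomial intervals. Short rows run from 97.1% at the end to 38.5% beyond 1600 bases and stay above the other classes at every distance.

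Transcript level and the strength of the peak moved with direction too. Genes of short rows had a median mean input of 16.7 FPKM, against 5.78 FPKM for long single-block rows and 7.09 FPKM for spliced ones. From the least to the most abundant of 5 classes of gene level, 56.0%, 70.1%, 70.7%, 83.7% and 94.7% of short rows were higher in KO by the authors' deposited table, and 10.8%, 8.5%, 11.2%, 19.5% and 30.2% of long ones. Short rows thus exceeded long rows in each class of level. At the gene end they were higher in 89.5%, 92.7% and 98.6% of cases from the lowest to the highest of 3 classes of level, and further inside in 38.8%, 43.7% and 70.9%, in the authors' deposited table. By the p of the peak itself, from the strongest to the weakest of 5 classes, short rows were higher in 93.8% (of 16 rows), 91.8%, 90.0%, 84.9% and 78.6%, and long rows in 3.9%, 9.3%, 16.7%, 26.2% and 35.2%, in the authors' deposited table. Spliced rows were higher in 1.3%, 7.2%, 18.4%, 39.8% and 61.4% (35 of 57), so in the weakest class of the authors' deposited table most of them were higher as well.

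The construction of the table bears on the count. Of the short rows, 540 overlap a KO peak and no WT peak, and all 540 were higher in KO by the authors' deposited table. Another 102 overlap a WT peak and no KO peak, and none was higher by the authors' deposited table. The 859 rows that overlap peaks of both lists were higher in 708 cases (82.4%, 79.7 to 84.9) in the authors' deposited table. Among rows over both lists of the authors' deposited table, the other classes were higher in 14.5% (long), 8.8% (spliced), 11.0% (5′ UTR) and 11.8% (other exon). The short rows were also split by the shape of the peak underneath, rows over a single list included. The splits by WT shape take in the 102 rows over a WT peak only, none of them higher. Those by KO shape take in the 540 rows over a KO peak only, all of them higher. The 2 splits therefore cannot be compared with each other. Where the WT peaks there were all short ones, 93.2% of 673 short rows were higher in KO by the authors' deposited table. Where they were long single-block peaks, 20.6% of 170 were, and where they were spliced, 10.6% of 66, again by the authors' deposited table. With a single shape of KO peak underneath, the share was 86.4% of 763 for short, 93.6% of 361 for long and 91.7% of 169 for spliced peaks, by the authors' deposited table. Rows over members of both lists were higher in 337 of 354 cases (95.2%, 92.4 to 97.2) in the authors' deposited table.

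Single transcripts carried regions of both directions. By the authors' deposited table, 345 genes had a short 3′ UTR row and a row of another class. In 214 of them (62.0%) the short rows of the authors' deposited table were higher in KO and the others lower, by their medians, in 67 both were lower, in 57 both were higher, and in 7 the short rows were lower and the others higher. The median log2 ratio over these genes was 0.58 for short rows and -0.39 for the other rows of the authors' deposited table. The genes also differ in how many rows they hold, and all rows of a gene share the same input libraries.

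Some genes held short rows of both directions. By the authors' deposited table, 32 genes had 1 short row or more within 100 bases of the end and another further inside. The end row was higher in KO in 32 of 32 by the authors' deposited table, and the inside row in 14. Of all short rows within 100 bases of the end, 97.1% were higher, so the count at the end is near that background. Further inside, the share of all short rows ran from 79.5% at 101 to 400 bases to 38.5% beyond 1600 bases. For Hnrnpf, an RNA-binding splicing regulator, the medians were 0.91 at the end and -0.48 inside in the authors' deposited table. Vhl, the oxygen-dependent ubiquitin ligase subunit, had 0.97 and -0.74, and Prrc2c, an RNA-binding protein of stress granules, 0.89 and -0.78, in the authors' deposited table. B4galt1, a galactosyltransferase, had 0.56 at the end and -0.76 inside in the authors' deposited table. For the macrophage transcription factor gene Maf the values were 0.38 at 71 bases and -0.24 at 521 bases from the end in the authors' deposited table. Grb2, an adaptor of receptor signalling, had 0.85 and 0.19 in the authors' deposited table, and Fabp5, a fatty acid binding protein, was higher inside (0.90) than at the end (0.44).

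**Figure D4:**
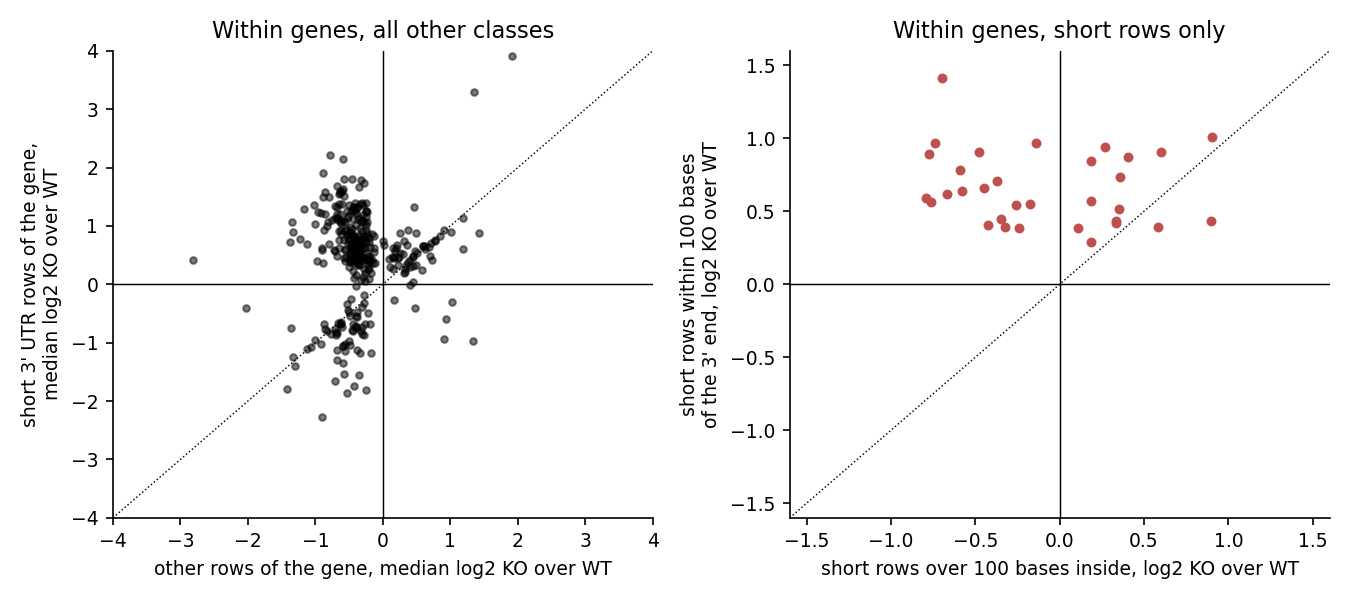
Log2 ratios of KO over WT from the authors' deposited table within single genes. Left, median of the short 3′ UTR rows against the median of all other rows for 345 genes. Right, median of short rows within 100 bases of the 3′ end against those further inside for 32 genes. The dotted line marks equality, and 2 genes lie outside the left axes, which end at -4 and 4. On the left 214 genes lie in the upper left, with short rows above 0 and the others below, and on the right all 32 genes lie above 0 on the vertical axis.

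The highest ratios named here are limited to rows at FDR under 0.05 in genes listed at 1 FPKM or more in both inputs, and to genes with an established name. Without these limits the ratios of short rows reached 6.91 in the authors' deposited table. In the authors' deposited table Eif3j1, a translation initiation factor subunit, had a log2 ratio of 3.01, with a KO peak of 4.45-fold and no WT peak, at inputs of 7.66 FPKM in KO and 8.00 FPKM in WT. Rsrc2, an arginine- and serine-rich protein, reached 2.31, and Eno1, the glycolytic enolase, 2.15 at the very end of the gene in the authors' deposited table. Gpx4, the enzyme that detoxifies lipid peroxides, had 2.08 in the authors' deposited table, with a KO peak of 4.25-fold and no WT peak, at 95.9 FPKM in KO and 111 FPKM in WT. Fxr2, an RNA-binding protein of the fragile X family, had 1.81, and Agpat4, an acyltransferase of phospholipid synthesis, 1.72 in the authors' deposited table. None of the 10 highest rows of the rule overlapped a WT peak. Of all 1501 short rows, 540 overlapped a KO peak and no WT peak, and all 540 were higher in KO by the authors' deposited table. Their median log2 ratio was 0.86, against 0.47 for short rows over both lists, so a ranking by ratio favours rows without a WT peak.

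The lowest rows under the same limits lay mostly inside the gene, as did lower short rows with a known distance as a whole. Of all 1501 short rows 253 were lower in KO, while within 100 bases of the end 770 of 793 were higher, by the authors' deposited table. In the authors' deposited table Ppp2r3c, a regulatory subunit of phosphatase 2A, stood at -4.46, with no KO peak and a WT peak of 22.9-fold, 663 bases from the gene end. Mrps33, a mitochondrial ribosomal protein, stood at -2.81 in the authors' deposited table at 356 bases. Usp12 had -2.63 in the authors' deposited table at 29 bases from the end, with inputs of 16.7 FPKM in KO and 17.1 FPKM in WT. Tank, an adaptor that restrains NF-kB signalling, had -1.75 in the authors' deposited table, with a fold of 2.36 in KO and 10.2 in WT, also close to the end at 30 bases. Fchsd2, a membrane-bending protein, had -2.08 at 1498 bases in the authors' deposited table.

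In the housekeeping lists short rows and most other rows were higher, where 83.1% of all short rows and 13.0% of all other rows were, by the authors' deposited table. Near the gene end, where 32 of 35 respiratory chain short rows with a known distance lay, 97.1% of all short rows were higher in the authors' deposited table, so the counts at short rows are close to that background. All 22 short rows of cytosolic ribosomal protein genes were higher in KO by the authors' deposited table, with a median log2 ratio of 0.50, as were 43 of 46 of their other rows. Rplp1, a stalk protein of the large subunit, had 0.59 and folds of 1.59 in KO with no WT peak, while Rps28, of the small subunit, had 0.51 in the authors' deposited table with folds of 1.51 in KO and 1.05 in WT. All 36 short rows of nuclear-encoded respiratory chain genes were higher in KO by the authors' deposited table, with a median of 0.58, and 15 of 17 other rows. Ndufs3 of complex I stood at 1.19, Sdhc of complex II at 1.13 and Uqcrc1 of complex III at 0.82 in the authors' deposited table. The proteasome list had 9 of 9 short rows higher and 6 of 10 others, with Psmb5, a catalytic subunit, at 0.95 in the authors' deposited table. Here short rows and the other rows pointed the same way, unlike in most of the lists that follow, a difference given without a test. The median levels of these lists, 136, 42.9 and 26.3 FPKM, were above that of the 3679 listed genes averaging 1 FPKM or more, 7.99 FPKM. Several of these genes have near-identical copies, so reads could be split between them.

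Lysosome and lipid genes, active programmes of macrophages, followed the pattern of the whole table, in which 83.1% of all short rows and 13.0% of all other rows were higher in KO by the authors' deposited table. Short rows of the phagocytosis and lysosome list were higher in KO in 19 of 21 cases by the authors' deposited table, against 2 of 9 other rows. Atp6v0c and Atp6v0d1, subunits of the proton pump that acidifies lysosomes, had 0.67 and 0.66, and the membrane proteins Laptm5 and Lamp1 0.59 and 0.51, in the authors' deposited table. Laptm5 had a fold of 2.04 in KO and 1.22 in WT, and Lamp1 1.80 in KO and 1.25 in WT. The 2 lower rows were both in Mitf, a transcription factor of lysosome and osteoclast genes, at -0.76 and -0.36 by the authors' deposited table, 1388 and 969 bases from the end and both over WT enrichment of 2.28-fold. All 10 short rows of the cholesterol and lipid list were higher by the authors' deposited table, against 1 of 13 other rows. Lrp1, a scavenger and lipoprotein receptor, had 0.78, the lipid droplet protein gene Plin2 0.72 and the cholesterol exporters Abca1 and Abcg1 0.61 and 0.48, in the authors' deposited table. Abcg1 had a fold of 4.11 in KO and 2.13 in WT, and Abca1 2.06 in KO and 1.35 in WT. Iron handling gave 5 of 5 short rows higher, against 1 of 14 others, with the transferrin receptor Tfrc at 0.69 and the ferritin heavy chain Fth1 at 0.52 in the authors' deposited table.

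Macrophage and inflammatory lists held few short rows, with shares again near those of all short and all other rows except for cytokines and chemokines. Of macrophage identity genes, 8 of 9 short rows were higher in KO by the authors' deposited table, against 2 of 18 others. The surface marker Adgre1 (F4/80) had 0.54, Lyz2 0.47 and the receptor Trem2 0.32, by the authors' deposited table, and the exception was the inside row of Maf. By the authors' deposited table, all 6 short rows of cytokines and chemokines were higher and 2 of their 4 other rows. The short rows stood at 1.08 for the inflammatory cytokine Tnf, 0.71 for Mif, 0.70 for osteopontin (Spp1) and 0.51 for the chemokine Ccl9, in the authors' deposited table. Tnf had a fold of 4.33 in KO and no WT peak, at inputs of 5.85 FPKM in KO and 5.03 FPKM in WT. In the list of Toll-like receptor and NF-kB signalling the authors' deposited table held only 2 short rows, both higher, and 33 of 33 others were lower. The kinase Irak2 had 1.56 at its end and the trafficking chaperone Unc93b1 0.44, in the authors' deposited table.

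The next 3 lists were also near the 83.1% of all short rows and 13.0% of all other rows, within their small numbers. Negative regulators of inflammation had 5 of 7 short rows higher in KO and 0 of 13 others in the authors' deposited table. The NF-kB inhibitor Nfkbia stood at 0.80 and the mRNA decay factor Zfp36l2 at 0.60, by the authors' deposited table, and Zfp36l2 had folds of 4.84 in KO and 2.98 in WT. Irak3, a kinase-like brake on Toll-like receptor signalling, had -1.13 at 1224 bases from the end, and Zfp36l1, the relative of Zfp36l2, -0.53 at 1368 bases, in the authors' deposited table. Both lower rows lay over 1000 bases from the gene end. The FDR of the Zfp36l1 row in the authors' deposited table was above 0.05, at 0.0617. Interferon-stimulated genes gave 4 of 5 short rows higher by the authors' deposited table, against 1 of 13 others. The restriction factors Trim30a (1.26) and Bst2 (0.49) were higher, and Rsad2 (viperin) stood at -0.82 at 2573 bases from the end with an FDR of 0.0955, in the authors' deposited table. Immediate early genes had 2 short rows, both higher, against 0 of 19 others, with Btg1 at 0.42 and Klf6 at 0.40 in the authors' deposited table, Klf6 with an FDR of 0.101.

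**Figure D5:**
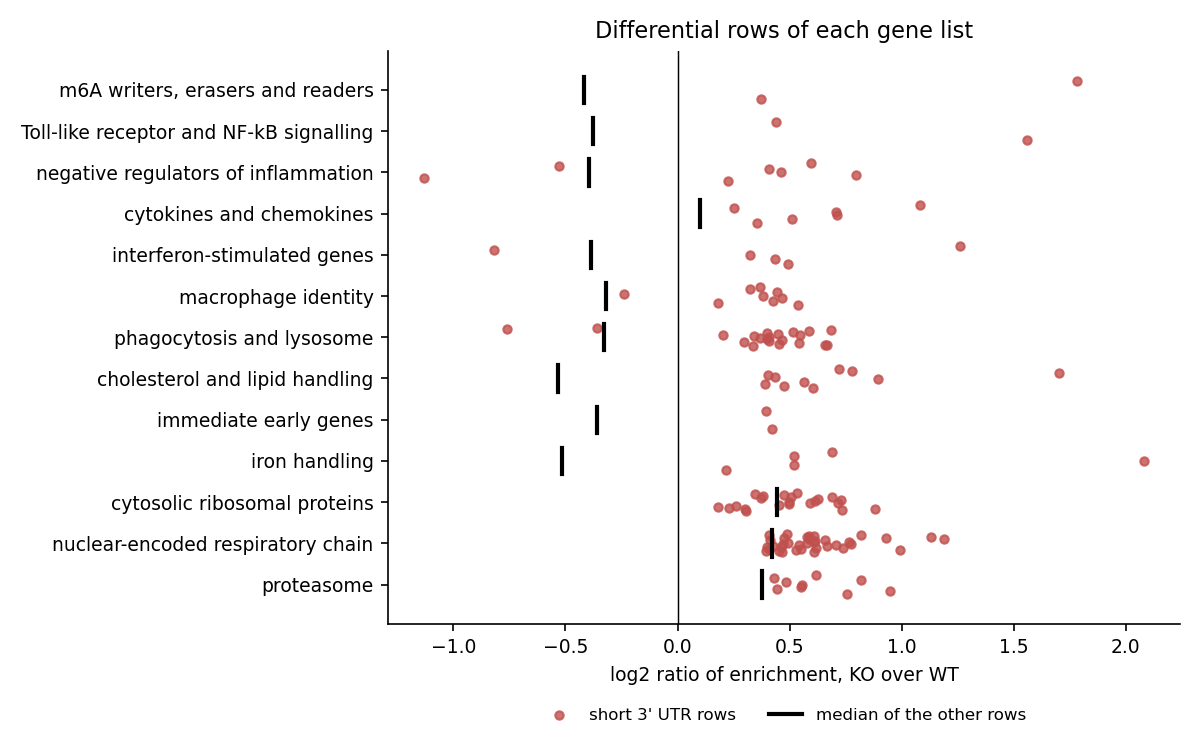
Log2 ratio of KO over WT for each short single-block 3′ UTR row of 13 gene lists in the authors' deposited table (points), beside the median of all other rows of the same list (black bars). Points lie mainly right of 0. The bars lie left of 0 except for cytokines and chemokines, ribosomal proteins, the respiratory chain and the proteasome.

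The m6A machinery itself had few short rows. Virma, a scaffold of the writer complex, had 1.78 (FDR 0.0891) and the reader Hnrnpa2b1 0.37 by the authors' deposited table, against 1 of 18 other rows higher. Short peaks stood in 15 genes of this list in KO and 4 in WT, with 3 in both, and at FDR under 0.05 in 7 in KO and 2 in WT. Over all 13 lists it was 195 genes in KO and 156 in WT, and over all RefSeq genes 4626 in KO and 3039 in WT. Mettl3, the deleted gene, had a short KO peak of 1.37-fold (FDR 0.0933) 1230 bases from its end and none in WT. Its input level was not analysed here, so the genotype was not checked on its transcript.

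Input RNA of the genes with short peaks differed little between the genotypes. The median difference, log2(FPKM + 1) in KO minus WT, was 0.07 over 1551 genes with a KO short peak and 0.05 over 1141 genes with a WT one, against 0.07 over all 3679 genes averaging 1 FPKM or more. This scale understates the differences of low genes. Levels were listed only for genes with a row in the authors' deposited table. Of the defining macrophage markers 6 of 10 had a level, summing to 8236 FPKM in KO and 12093 FPKM in WT, of which Lyz2 made up 6615 FPKM in KO and 10533 FPKM in WT. The neutrophil genes S100a8 and S100a9, 2 of 8 markers, summed to 137 FPKM in KO and 233 FPKM in WT. The B cell gene Cd79b, 1 of 4 markers, stood at 0.734 FPKM in KO and 1.12 FPKM in WT. No marker of T and NK cells, red cells, stroma, dendritic cells or osteoclasts had a listed level. Fewer cells of a type and less RNA per cell cannot be told apart in such bulk samples. For Lyz2, whose promoter drives LysM-cre, an effect of the Cre allele cannot be told apart from these either. The part of all of these in the peak ratios was not tested.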

How the data were processed

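Samples were grouped by their titles. Per the submitters' processing notes the work used the build mm10 and the tools edgeR, StringTie, ChIPseeker, HOMER, HISAT2 and fastp, with no role stated; no source used here names the peak caller. The authors deposited 1 peak list per genotype, each from a single IP and input pair. Per the file headers, its values are the fold (IP over input, a ratio), the p-value and the FDR of a peak, used here only within a list. The lists hold peaks with a p-value of at most 0.05. Per the file headers, a deposited table gives, for 6050 rows, enrichment in KO over that in WT as a log2 ratio, all with a p-value under 0.05, and another deposited table gives input FPKM of their genes. Read depth is unknown. With 1 library per group, no test was run.

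Short peaks, overlap of exonic blocks (at least 1 base, strand ignored, the same counts as bedtools), direction, distance from RefSeq GRCm38 gene ends and gene lists were computed with Python 3.11.15, pandas 2.3.3 and scipy 1.17.1, and checked on simulated intervals. List starts count from 0 and are printed from 1. The members, gene lists and rule for named genes were chosen with earlier results of these data known. The rule took the 10 highest folds per list and the 10 lowest and highest log2 ratios, all at FDR under 0.05, 1 per gene, with no predicted gene names and at 1 FPKM or more in both inputs (for folds, where listed), the largest ratios of each gene list and peaks at the same position in both lists; the text names some of these. Other examples, among them those within single genes, were picked with their values in view. Alternatives tried were length limits of 200 and 250 bases, FDR, fold and p limits, reciprocal overlap, centring, other rows, pseudocount 0.1, and FPKM filters.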

Additional observations from a re-analysis of the deposited data

How the results depend on the processing

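Short rows higher in KO stood at 83.1% of 1501, and at 87.0% with an FDR of the difference under 0.05, in the authors' deposited table. The share was 76.1% at an absolute log2 ratio of 1 or more (331 rows), 85.3% after centring on the table's median and 88.2% at a limit of 200 bases. Rows of any class, not only short ones, were higher in 74.3% of 1015 overlapping a KO short peak. They were higher in 91.5% of 812 overlapping a WT short peak. Among settings added after seeing the data, the share of short rows was 82.4% over both lists, 82.8% with 1 row per overlapping group and 81.2% where the assigned gene is the only RefSeq gene there. The share of short peaks moved with the limits, to 12.3% in KO and 12.5% in WT at 200 bases, 21.7% in KO and 18.1% in WT at 250 bases, 23.4% in KO and 15.9% in WT at FDR under 0.05, 10.2% in KO and 6.28% in WT at 4-fold or more, and 10.7% in KO and 3.50% in WT at a p of 1e-10 or lower. At 200 bases the KO share was thus not above the WT share. Overlap with the other list was 25.0% in KO and 44.6% in WT when it had to cover 50% of both peaks, 49.8% in KO and 79.9% in WT at FDR under 0.05, 35.7% in KO and 51.4% in WT at 4-fold, and 31.0% in KO at 200 bases. Peaks at the gene end made up 64.2% in KO and 56.0% in WT at FDR under 0.05, 46.2% in KO and 52.3% in WT at 200 bases, and 48.4% in KO and 44.0% in WT within 50 bases, the last chosen after seeing the data. At 200 bases the KO share at the end was below the WT share. The cause of these changes was not tested. Genes of the 13 lists with a short peak numbered 195 in KO and 156 in WT, and 161 in KO and 117 in WT at FDR under 0.05. Over all alternatives 29 values moved beyond the interval or range set for them, and 16 did not, among them all median folds and input differences.

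No paired analysis was possible because each genotype has 1 IP and 1 input library. A search for the DRACH motif across all peaks was not run, since no genome of the build was at hand. With 1 library pair per genotype, intervals cover counting error alone, depth is unknown, and rows that the authors tested and did not list cannot be counted.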
